A study of Mus musculus with 96 samples.

Results

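The genes described here are 28 genes of cholesterol handling, chosen by name from a fixed list, of the 29072 gene symbols in the deposited table. They comprise 18 enzymes of cholesterol synthesis and 4 genes of the transcription factor SREBP2 and its control (Srebf2, which encodes it, with Insig1, Insig2 and Scap). The others are 2 genes of sterol transport and storage (Stard4 and Soat1) and 4 genes of uptake and efflux (Abca1, Abcg1, Mylip and Scarb1). The choice was made by name, but with earlier results of these data known. Of the 28 genes, 27 were found under their symbol, and Msmo1 was found under its older symbol Sc4mol through its gene identifier. Idi1, the isomerase of the isoprenoid steps, had a mean of at most 0.542 RPKM in any group and did not pass the filter of 0.5 RPKM in 8 libraries, so 27 members were tested.

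RNA was sequenced from iBAT, the interscapular brown fat that makes heat, and from iWAT, the inguinal white fat that lies under the skin. All animals were male C57BL/6J mice, wild-type or Ucp1-KO, lacking uncoupling protein 1 through which brown fat makes heat. Each genotype was kept for 4 weeks at 20 °C on a control diet, in which fat gave 13% of the energy, at 30 °C, which is thermoneutral for mice, on that same diet, or at 30 °C on a high fat diet, in which fat gave 48%. This gave 6 groups of 8 animals, each sampled in both tissues, thus 12 groups and 96 libraries. The labels restrict the knockout to no tissue and name no part of Ucp1 that the allele lacks. They also do not say which iBAT and iWAT libraries came from 1 animal.

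Cells make cholesterol from acetyl-CoA through mevalonate, farnesyl diphosphate, squalene and lanosterol. When sterols are scarce, Scap carries SREBP2, the product of Srebf2, out of the endoplasmic reticulum and the cleaved factor switches on the enzyme genes; when sterols are plentiful, the Insig proteins hold it back. Surplus sterol is esterified by Soat1 or exported by Abca1 and Abcg1, genes switched on by the oxysterol receptor LXR, which also raises Mylip, a ligase that removes lipoprotein receptors.

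Promoter sequences are shown because most of the enzymes moved together with temperature. In the RefSeq promoter table (build GRCm38.p6, 250 bases before to 50 after each gene start), 22 of the 28 members had an entry; Fdps, Fdft1, Sqle, Stard4, Abcg1 and Scarb1 had none. The box CCAAT, bound by NF-Y, a common partner of SREBP, was found on either strand in 14 of 15 enzymes with a promoter and in 41.1% of all 27025 symbols in the table. The GC box GGGCGG, bound by Sp1, was found in 14 of 15 enzymes and in 38.2% of all symbols. The sterol regulatory element TCACNCCAC, searched by these letters, was found in 1 of 15 enzymes (Hmgcs1, between positions -137 and -129) and in 1.44% of all symbols. The DR4 element of LXR was searched on both strands by a fixed pattern whose letters are not listed here. That pattern matched none of the 22 members and 0.0962% of all symbols. Looser spellings were not counted, such as ttgaccggtagtaacc in the Abca1 sequence below. The lack of a match therefore does not show that a member lacks an LXR site. The 88 matches counted did not overlap between motifs, and a match is a description of letters, not a measured binding site. Neither CCAAT nor GGGCGG was particular to the enzymes. CCAAT was in 19 of all 22 members with an entry, among them Insig1, Insig2, Srebf2, Soat1 and Mylip, and GGGCGG was in 21. The 150 bases before the gene start are given 5′ to 3′ for 5 enzymes and, for comparison, for Abca1, which held no CCAAT. Capitals mark CCAAT or its complement ATTGG and, in Hmgcs1, the sterol regulatory element.
Hmgcs1 (chr13:119690201-119690350, + strand): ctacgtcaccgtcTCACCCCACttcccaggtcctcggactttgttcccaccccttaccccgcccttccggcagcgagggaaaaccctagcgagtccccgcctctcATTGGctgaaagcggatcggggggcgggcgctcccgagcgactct
Mvk (chr5:114444119-114444268, + strand): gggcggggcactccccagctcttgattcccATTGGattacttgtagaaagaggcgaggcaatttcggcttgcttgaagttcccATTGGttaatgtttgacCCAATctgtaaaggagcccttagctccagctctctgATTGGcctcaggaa
Lss (chr10:76531455-76531604, + strand): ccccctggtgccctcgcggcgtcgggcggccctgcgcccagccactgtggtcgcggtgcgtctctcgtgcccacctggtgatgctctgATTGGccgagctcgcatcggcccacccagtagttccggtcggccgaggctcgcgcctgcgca
Cyp51 (chr5:4104698-4104847, - strand): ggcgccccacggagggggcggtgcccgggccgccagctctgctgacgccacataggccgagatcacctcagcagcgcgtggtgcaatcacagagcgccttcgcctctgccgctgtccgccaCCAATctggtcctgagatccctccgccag
Nsdhl (chrX:72918371-72918520, + strand): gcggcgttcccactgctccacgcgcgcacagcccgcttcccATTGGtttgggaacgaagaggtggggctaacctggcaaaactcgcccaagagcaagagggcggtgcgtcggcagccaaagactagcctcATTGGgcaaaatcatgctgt
Abca1 (chr4:53159896-53160045, - strand): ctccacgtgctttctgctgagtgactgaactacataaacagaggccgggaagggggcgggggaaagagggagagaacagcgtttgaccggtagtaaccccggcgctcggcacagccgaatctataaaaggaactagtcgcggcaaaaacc

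Libraries held 8.91 to 19.2 M reads (median 11.85 M). No adipocyte or brown adipocyte marker was at 0 throughout a group, and the brown adipocyte markers other than Ucp1 summed to 1421 to 6956 RPKM in iBAT and to 50.4 to 3906 RPKM in iWAT. Ucp1 itself was 2428 to 9281 RPKM in wild-type iBAT and 546 to 1145 RPKM in iBAT labelled Ucp1-KO, so the transcript was still detected there. In wild-type iBAT on control diet Ucp1 was lower at 20 °C, 2428 to 4550 RPKM, than at 30 °C, 7328 to 9281 RPKM, with ranges apart. The cause was not tested. In iWAT, B cell markers summed to 14.6 to 437 RPKM against at most 33.4 RPKM in iBAT. Skeletal muscle markers varied within every group. A set of 4 libraries had a correlation under 0.97 with the rest of their group: libraries 7 and 8 of Ucp1-KO iBAT at 30 °C on control diet, library 6 of wild-type iWAT at 20 °C, and library 7 of Ucp1-KO iWAT at 30 °C on control diet.

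Values below are RPKM (reads divided by transcript length in kilobases and by library size in M reads), given as the lowest, median and highest of 8 libraries. Differences are of log2(RPKM + 1) with the SE from limma, and a gene is said to rise, fall, or be higher or lower only where limma's Benjamini-Hochberg adjusted p over all genes tested in that comparison was under 0.05. On this scale the change of genes near 1 RPKM is understated. RPKM are shares of a library, and the median of all genes was itself below 0 in several comparisons, so many counts of members are also given after median-ratio scaling. That scaling centres the log ratios of genes above 0 in every library, and not the median of all genes tested. Comparisons of temperature, genotype and diet within a tissue share groups of libraries. In bulk tissue, fewer cells of a type and less RNA per cell cannot be told apart.

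The enzymes of cholesterol synthesis were higher at 20 °C than at 30 °C in both tissues and both genotypes. In wild-type iBAT 14 of 17 tested enzymes rose and 1 fell (Hmgcs1), with a median of 0.88 against -0.12 for all genes, of which 44.6% passed in either direction. In Ucp1-KO iBAT 12 rose and 1 fell (Ebp, the sterol isomerase, -0.35), with a median of 0.50 against -0.34, and 73.4% of all genes passed. In wild-type iWAT 12 rose and none fell, with a median of 0.54 against -0.10 (19.6% of all genes passed). In Ucp1-KO iWAT 13 rose and 1 fell (Ebp, -0.35), with a median of 0.67 against -0.25 (60.4% of all genes passed). These 4 comparisons share no library, but both tissues were taken from the same groups of 8 animals, so they are not independent. Acat2, Pmvk, Fdps, Sqle, Lss, Cyp51, Nsdhl, Sc5d and Dhcr7, thus 9 of 17 enzymes, rose in all 4, against 2.34% of 14539 genes tested in both tissues. After median-ratio scaling the enzymes that rose and fell numbered 15 and 1 in wild-type iBAT, 16 and 0 in Ucp1-KO iBAT, 13 and 0 in wild-type iWAT and 16 and 0 in Ucp1-KO iWAT. The share of all calls that were higher at 20 °C went with that scaling from 26.1 to 49.8%, from 18.9 to 47.4%, from 37.0 to 70.9% and from 14.9 to 63.4% in the same order. Without the 4 libraries that stood apart, the enzymes that rose numbered 14, 12, 12 and 12.

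Markers of other cells moved with temperature as well. Of the 9 brown adipocyte markers, 5 rose and 3 fell at 20 °C in wild-type iBAT, 8 rose and 1 fell in Ucp1-KO iBAT, and 8 and 9 rose in wild-type and Ucp1-KO iWAT. Macrophage markers were lower in 8, 12, 0 and 7 of 12 in the same order, endothelial markers in 5, 5, 2 and 4 of 5, and fibroblast markers in 4, 4, 2 and 4 of 4. Of all genes 11.6, 13.9, 7.2 and 9.0% rose and 33, 59.5, 12.35 and 51.4% fell in that order. The marker counts are without median-ratio scaling. The part of these markers in the differences of the enzymes was not tested.

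**Figure D1:**
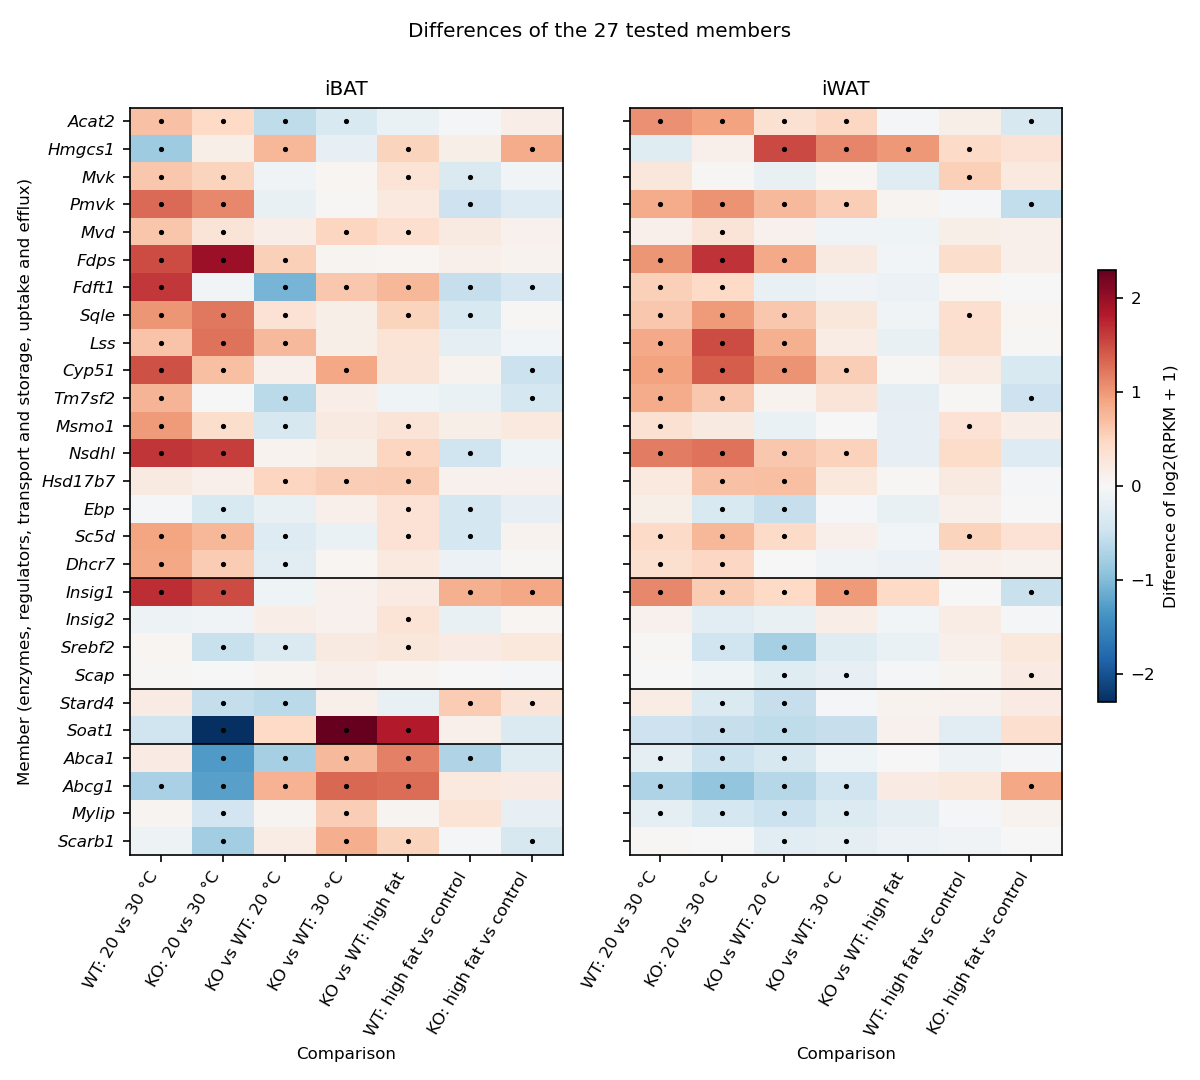
Differences of log2(RPKM + 1) for the 27 tested members in 7 comparisons in iBAT (left) and iWAT (right), red higher and blue lower in the first-named condition, with a dot where limma's adjusted p was under 0.05. The enzyme rows are mostly red in the columns for 20 against 30 °C. Hmgcs1 in wild-type mice and Ebp in Ucp1-KO mice are among the exceptions. Soat1 in Ucp1-KO iBAT has the strongest colours (-2.30 at 20 against 30 °C).

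Fdps, the farnesyl diphosphate synthase at the branch to sterols and other isoprenoids, ran from 6.19 through 8.16 to 12.6 RPKM in wild-type iBAT at 20 °C and from 1.35 through 2.55 to 3.20 RPKM at 30 °C. In Ucp1-KO iBAT it ran from 8.01 through 13.9 to 20.1 RPKM and from 1.39 through 2.61 to 3.67 RPKM. Neither pair of ranges overlapped, and Fdps rose by 1.50 ± 0.16 (adjusted p = 2.72e-10, limma) in wild-type and by 1.97 ± 0.16 (adjusted p = 1.54e-14) in Ucp1-KO mice. In Ucp1-KO iWAT it was 5.56, 9.91 and 18.2 RPKM at 20 °C against 1.20, 2.62 and 4.06 RPKM at 30 °C, a rise of 1.67 ± 0.17 (adjusted p = 2.09e-10).

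Nsdhl, a dehydrogenase that helps strip methyl groups from lanosterol, moved with temperature by similar amounts in all 4 settings. In wild-type iBAT it was 23.1, 27.6 and 40.0 RPKM at 20 °C and 7.29, 9.03 and 10.9 RPKM at 30 °C. The rise was 1.64 ± 0.12 (adjusted p = 1.49e-15, limma) in wild-type iBAT, 1.59 ± 0.12 in Ucp1-KO iBAT, 1.18 ± 0.15 in wild-type iWAT and 1.26 ± 0.15 in Ucp1-KO iWAT, and the ranges at 20 and 30 °C were apart in each. Pmvk, the phosphomevalonate kinase, was 44.4, 58.7 and 68.0 RPKM in wild-type iBAT at 20 °C and 19.0, 23.1 and 26.3 RPKM at 30 °C, a rise of 1.31 ± 0.11 (adjusted p = 5.25e-13); it rose by 1.11 ± 0.11, 0.86 ± 0.13 and 1.03 ± 0.13 in Ucp1-KO iBAT, wild-type iWAT and Ucp1-KO iWAT.

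Cyp51, the lanosterol demethylase, was 14.7, 18.5 and 24.3 RPKM in wild-type iBAT at 20 °C against 4.28, 5.99 and 7.96 RPKM at 30 °C, and rose by 1.46 ± 0.15 (adjusted p = 1.35e-10, limma). Msmo1, the methylsterol monooxygenase, rose there by 0.98 ± 0.10 from a median of 5.92 to 13.2 RPKM. Sqle, the squalene epoxidase, rose by 1.22 ± 0.13 in Ucp1-KO iBAT, from 2.68, 2.95 and 5.12 to 7.46, 7.89 and 12.8 RPKM. Lss, which closes the sterol rings, rose in Ucp1-KO iWAT from 2.52, 3.98 and 5.30 to 7.44, 13.1 and 21.3 RPKM, by 1.50 ± 0.19 (adjusted p = 1.11e-08). In wild-type iWAT, Acat2, the thiolase of the first step, rose by 1.05 ± 0.14 and Tm7sf2, a sterol reductase, by 0.85 ± 0.12, again with ranges apart. The untested Idi1 was 0.279, 0.588 and 0.700 RPKM in wild-type iBAT at 20 °C and 0.0874, 0.190 and 0.274 RPKM at 30 °C.

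**Figure D2:**
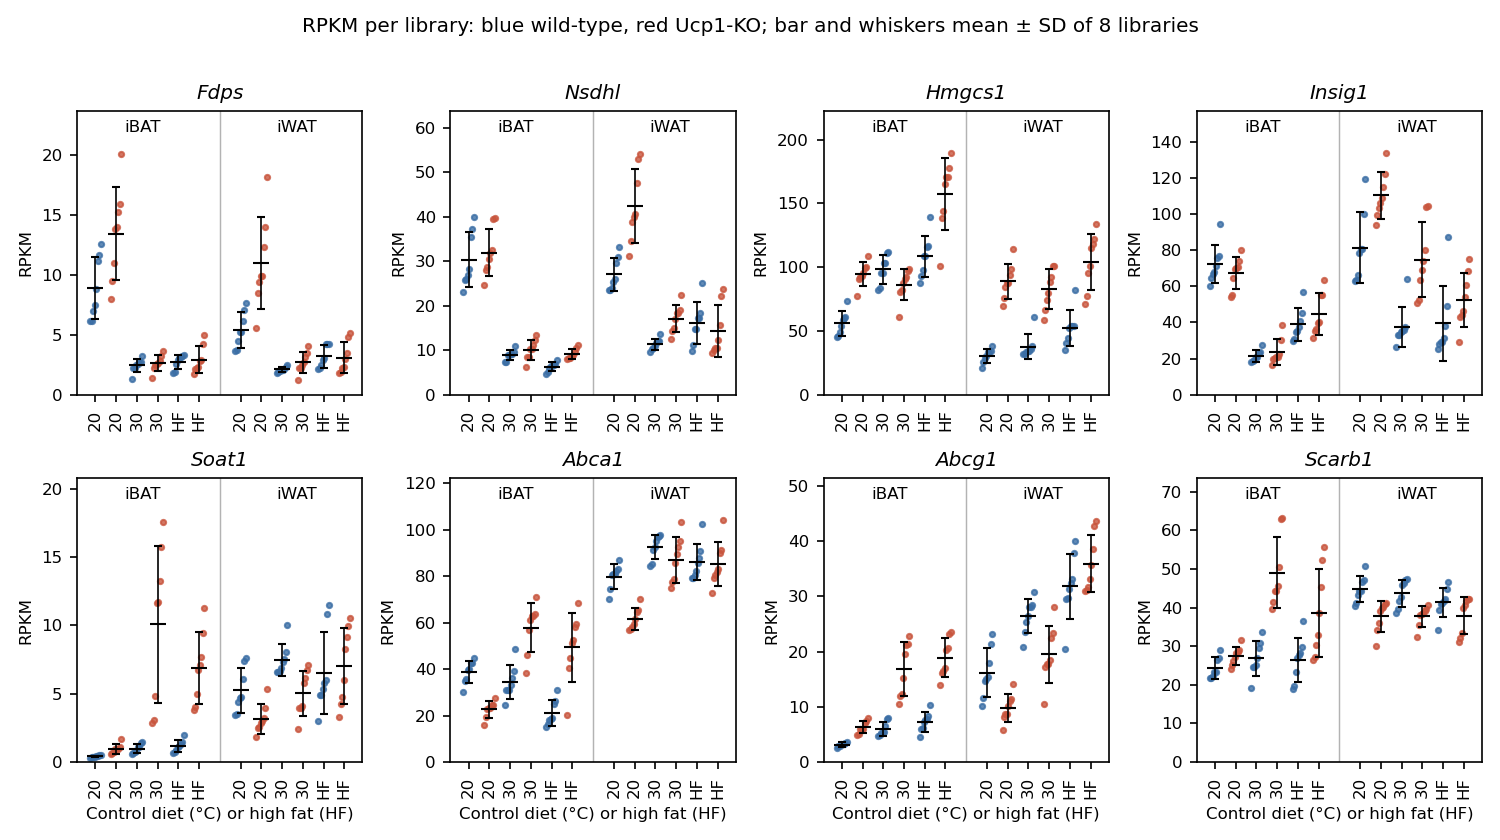
RPKM of 8 members in each library by group (blue wild-type, red Ucp1-KO; the bar and whiskers are the mean and SD of 8 libraries; groups at 20 °C, 30 °C and on high fat diet, HF, from left to right in each tissue). Fdps and Nsdhl stand high at 20 °C in both tissues, Hmgcs1 in wild-type iBAT is lower at 20 °C than at 30 °C, and Soat1 in iBAT passes 2.5 RPKM only in Ucp1-KO mice at 30 °C.

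Fdft1, squalene synthase and the first step committed to sterols, depended on the transcript counted. Its most abundant transcript was 24.8, 28.0 and 41.7 RPKM in wild-type iBAT at 20 °C and 6.45, 9.05 and 12.2 RPKM at 30 °C, a rise of 1.63 ± 0.11 (adjusted p = 1.47e-15, limma). In Ucp1-KO iBAT the difference was -0.07 ± 0.11, with 14.6 ± 1.59 RPKM (SD, n = 8) at 30 °C. The other 3 of its 4 transcripts gave 1.93 to 2.00 in wild-type and 0.89 to 0.91 in Ucp1-KO iBAT. In the RefSeq annotation GRCm38.p6 the gene overlaps Ctsb, a lysosomal protease, over 774 bases. At 30 °C Ctsb in iBAT ran from 533 to 670 RPKM (wild-type) and from 833 to 1248 RPKM (Ucp1-KO); its part in the value of Fdft1 was not tested. Acat2, Mvd, Fdps, Lss, Insig1 and Scarb1 also overlap a noncoding gene or a pseudogene there, and whether reads were counted by strand is not given in the sources used here. Transcripts of 1 gene disagreed in sign for other calls too. For Dhcr7, 6 of 7 had a difference above 0 at 20 °C in wild-type iWAT. For Sc5d, 3 of 6 were above 0 for genotype in iBAT on high fat diet, and 5 of 6 below 0 for diet in wild-type iBAT.

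Hmgcs1, the cytosolic HMG-CoA synthase, went against most of the other enzymes with temperature in wild-type iBAT. In wild-type iBAT it was 45.0, 56.3 and 73.5 RPKM at 20 °C and 81.7, 99.3 and 112 RPKM at 30 °C, so the ranges were apart and the gene fell by 0.81 ± 0.11 at 20 °C (adjusted p = 2.68e-08, limma). In Ucp1-KO iBAT the difference was 0.14 ± 0.11 (95% interval -0.07 to 0.35). The temperature effects of the genotypes differed by 0.95 ± 0.15 (interaction, adjusted p = 1.48e-06). In iWAT the differences with temperature were -0.28 ± 0.14 in wild-type and 0.12 ± 0.14 in Ucp1-KO mice, neither past the threshold. All 8 transcripts of Hmgcs1 gave the same signs in these 4 comparisons.

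Whether the response to temperature differed between genotypes was tested by the interaction. It is the difference at 20 less 30 °C in Ucp1-KO mice minus that in wild-type mice. In iBAT it passed for 7 of 17 enzymes, 2 above and 5 below 0, where 52.4% of all genes passed. Above 0 were Hmgcs1, which fell in wild-type mice only, and Lss (0.60 ± 0.21), which rose by 0.65 in wild-type and by 1.25 in Ucp1-KO mice. Below 0 were Fdft1 (-1.70 ± 0.16), Tm7sf2 (-0.77 ± 0.17), Msmo1 (-0.58 ± 0.14) and Cyp51 (-0.78), which had smaller differences in Ucp1-KO than in wild-type mice, and Ebp (-0.29), which was at -0.05 in wild-type and -0.35 in Ucp1-KO mice. After median-ratio scaling 3 were above and 4 below 0, with 47.6% instead of 22.7% of all calls higher. In iWAT only Ebp passed among the enzymes (-0.49 ± 0.09, adjusted p = 0.000736, limma), against 13.3% of all genes; after median-ratio scaling 4 enzymes passed, all above 0, Ebp did not (-0.25), and 83.9% instead of 16.2% of all calls were higher.

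The calls of enzymes by genotype are given by tissue, and whether the effect of genotype differed between tissues was not tested. In iBAT at 20 °C, 5 enzymes were higher in Ucp1-KO mice (Hmgcs1, Lss, Fdps, Hsd17b7 and Sqle) and 6 were lower (Fdft1, Tm7sf2, Acat2, Msmo1, Sc5d and Dhcr7), with 37.8% of all genes called. Hmgcs1 was 77.1, 94.2 and 109 RPKM in Ucp1-KO against 45.0, 56.3 and 73.5 RPKM in wild-type libraries, with no overlap (0.76 ± 0.11, adjusted p = 1.08e-07, limma). Fdft1 was lower by 1.08 ± 0.11 in its most abundant transcript, and its 4 transcripts ran from -1.58 to -1.08. Hsd17b7, a keto reductase of the demethylation steps, was higher by 0.49 ± 0.10, and Tm7sf2 was lower by 0.62 ± 0.12 with overlapping ranges. The split of all calls, 65.4% higher, was 51.8% after median-ratio scaling, with 4 enzymes higher and 7 lower.

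At 30 °C on control diet 4 enzymes of iBAT were higher in Ucp1-KO mice (Cyp51, Fdft1, Hsd17b7 and Mvd) and Acat2 was lower (-0.36), while 64.7% of all genes passed; the median was 0.13 for the enzymes and 0.27 for all genes. Cyp51 was 6.80, 12.3 and 21.5 RPKM in Ucp1-KO and 4.28, 5.99 and 7.96 RPKM in wild-type libraries (0.89 ± 0.15, adjusted p = 2.34e-06, limma), with some overlap. Hsd17b7 was 3.62 to 5.29 RPKM against 2.16 to 3.20 RPKM, without overlap (0.57 ± 0.10). Mvd, the decarboxylase that ends the mevalonate steps, was higher by 0.49 ± 0.12. Fdft1 was higher by 0.62 ± 0.11 in the most abundant transcript only; the other 3 gave -0.48 to -0.50. After median-ratio scaling 4 enzymes were higher and 6 lower, and the share of all calls that were higher went from 83.7 to 51.4%.

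Under high fat diet 10 enzymes were higher in Ucp1-KO iBAT and none lower, with 63.9% of all genes called and medians of 0.31 for the enzymes and 0.25 for all genes. Hmgcs1 was 101, 168 and 189 RPKM in Ucp1-KO and 87.5, 109 and 139 RPKM in wild-type libraries with overlap (0.52 ± 0.11, adjusted p = 4.18e-05, limma). Nsdhl was 7.92 to 11.2 RPKM against 4.58 to 7.76 RPKM (0.49 ± 0.12). Fdft1 was higher by 0.76 ± 0.11, with its other transcripts between 0.04 and 0.08, and Ctsb was 576 to 975 against 421 to 569 RPKM; their relation was not tested. The count of higher enzymes did not hold under another scaling: 2 were higher and 2 lower after median-ratio scaling, where 50.7% instead of 82.7% of all calls were higher, and the differences of Hmgcs1 (0.21) and Nsdhl (0.22) no longer passed.

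In iWAT at 20 °C, 10 enzymes were higher in Ucp1-KO mice and 1 was lower, while all genes had a median of -0.27 and 64.8% passed. Hmgcs1 led with 69.7, 87.7 and 114 RPKM in Ucp1-KO against 20.7, 32.0 and 38.0 RPKM in wild-type libraries (1.51 ± 0.14, adjusted p = 1.89e-11, limma). Cyp51 was higher by 1.03 ± 0.18, Fdps by 0.87 ± 0.17, Pmvk by 0.74 ± 0.13 and Hsd17b7 by 0.69 ± 0.12; the ranges of Pmvk were apart and those of Hsd17b7 overlapped in 1 wild-type library of 3.95 RPKM. Ebp was lower, 14.2 to 20.2 RPKM against 22.6 to 34.1 RPKM (-0.53 ± 0.07, adjusted p = 1e-08). After median-ratio scaling 13 enzymes were higher and 1 lower, and 54.9% instead of 15.2% of all calls were higher. Brown adipocyte markers moved with this comparison: 9 of 9, Ucp1 included, were higher in Ucp1-KO iWAT at 20 °C, and the 8 other than Ucp1 summed to 1513 to 3906 RPKM against 346 to 784 RPKM; their part was not tested.

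At 30 °C on control diet 5 enzymes were higher in Ucp1-KO iWAT (Hmgcs1, Pmvk, Cyp51, Nsdhl and Acat2) and none was lower, with 23.8% of all genes called. Hmgcs1 was 58.2, 83.8 and 101 RPKM against 32.0, 34.4 and 61.1 RPKM; only library 8 of the wild-type group, at 61.1 RPKM, reached into the Ucp1-KO range (1.12 ± 0.14, adjusted p = 3.86e-07, limma). Pmvk was 32.7 to 54.0 RPKM against 21.5 to 30.7 RPKM (0.57 ± 0.13), and Nsdhl was higher by 0.54 ± 0.15 and Acat2 by 0.48 ± 0.14 with overlap. After median-ratio scaling 6 were higher, and 69.6% instead of 31.7% of all calls were higher. All 9 brown adipocyte markers were higher here too, which was not tested as a cause. On high fat diet Hmgcs1 was the only enzyme called, with 70.9, 108 and 134 RPKM in Ucp1-KO and 35.3, 53.1 and 82.2 RPKM in wild-type libraries (1.00 ± 0.14, adjusted p = 3.81e-05), where 0.283% of all genes passed and none of the 9 brown markers did. After median-ratio scaling Hmgcs1 was again the only member called, and 85.4% instead of 68.9% of all calls were higher. Ebp (-0.18 ± 0.07), Mvk (-0.27 ± 0.11) and Msmo1 (-0.19 ± 0.10) did not pass.

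High fat diet lowered 7 enzymes in wild-type iBAT and raised none, with 33% of all genes called. Ebp fell from 13.1, 15.8 and 18.8 to 9.95, 11.6 and 13.7 RPKM (-0.40 ± 0.08, adjusted p = 0.000262, limma), Pmvk fell by 0.48 ± 0.11, Nsdhl fell by 0.45 ± 0.12 and Fdft1 fell by 0.52 ± 0.11. In that comparison 6 of 9 brown adipocyte markers were lower and 1 higher, and 5 of 5 endothelial and 3 of 3 erythroid markers were higher; their part was not tested. In Ucp1-KO iBAT, where 16.4% of all genes passed, 3 enzymes fell, Fdft1 (-0.38 ± 0.11), Tm7sf2 (-0.40 ± 0.12) and Cyp51 (-0.50 ± 0.15, not past the threshold without libraries 7 and 8 of the 30 °C group, -0.35), and Hmgcs1 rose from 60.8, 88.8 and 98.8 to 101, 168 and 189 RPKM (0.85 ± 0.11, adjusted p = 1.5e-07). The ranges of Hmgcs1 were apart, though its 8 transcripts ran from 0.35 to 0.85. In the interaction of diet and genotype Hmgcs1 alone passed among the members (0.71 ± 0.15, adjusted p = 0.00224), against 6.55% of all genes; Sc5d (0.48 ± 0.17), Cyp51 (-0.59 ± 0.22) and Mvk (0.28 ± 0.12) did not.

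The calls with diet in iWAT follow, and whether the effect of diet differed between tissues was not tested. In wild-type iWAT 5 enzymes rose on high fat diet (Mvk, Sc5d, Hmgcs1, Sqle and Msmo1) and none fell, with 13.5% of all genes called. Mvk, the mevalonate kinase, went from 4.17, 4.82 and 5.06 to 4.83, 8.11 and 9.26 RPKM (0.55 ± 0.11, adjusted p = 0.000319, limma), and Sc5d, a sterol desaturase, rose by 0.52 ± 0.13; the calls of Hmgcs1, Sqle (0.39 ± 0.12) and Msmo1 (0.34 ± 0.10) were lost after median-ratio scaling. In Ucp1-KO iWAT 3 fell (Pmvk, Tm7sf2 and Acat2) and none rose, with 24.4% called. Pmvk went from 32.7, 36.7 and 54.0 to 19.2, 25.2 and 35.8 RPKM (-0.56 ± 0.13, adjusted p = 0.00105), Tm7sf2 fell by 0.48 ± 0.12 and Acat2 fell by 0.38 ± 0.14, while Sc5d was at 0.33 ± 0.13 and not called. The interaction of diet and genotype in iWAT passed for no member with limma and for 1.33% of all genes; Nsdhl (-0.73 ± 0.22), Tm7sf2 (-0.51 ± 0.17), Pmvk (-0.51 ± 0.18) and Acat2 (-0.51 ± 0.20) were nearest among the enzymes, and 14 members passed with array weights. On that diet 9 of 9 brown adipocyte and 3 of 3 erythroid markers fell in Ucp1-KO iWAT, 4 of 9 brown adipocyte markers in wild-type iWAT, and 4 of 5 skeletal muscle markers in both; their part was not tested. The share of all calls that were higher was 65.9% in Ucp1-KO iWAT and 43.7% after median-ratio scaling.

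Among the regulators, Insig1, itself a target of SREBP, moved with the enzymes. In wild-type iBAT it was 60.5, 69.5 and 94.6 RPKM at 20 °C and 18.1, 20.9 and 27.6 RPKM at 30 °C, with ranges apart (1.70 ± 0.14, adjusted p = 8.34e-14, limma). In Ucp1-KO iBAT it rose by 1.50 ± 0.14, in wild-type iWAT by 1.11 ± 0.19 and in Ucp1-KO iWAT by 0.59 ± 0.19. Diet separated Insig1 from the enzymes in wild-type iBAT, where no enzyme rose on high fat diet. Insig1 reached 29.6, 36.4 and 57.1 RPKM there, above the whole range at 30 °C on control diet (0.81 ± 0.14, adjusted p = 9.47e-06, limma). In Ucp1-KO iBAT it rose on high fat diet by 0.89 ± 0.14 with overlapping ranges, and among the enzymes Hmgcs1 rose as well (0.85). In iWAT Insig1 was higher in Ucp1-KO mice at 20 °C (0.46 ± 0.19) and at 30 °C, 50.6, 71.6 and 105 RPKM against 26.2, 35.0 and 63.9 RPKM (0.98 ± 0.19, adjusted p = 0.000312). It fell by 0.51 ± 0.19 on high fat diet in Ucp1-KO iWAT and was at 0.00 ± 0.19 in wild-type iWAT.

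Srebf2 and its partner genes moved less. In Ucp1-KO iWAT at 20 °C Srebf2 was 5.61, 7.41 and 9.63 RPKM against 11.3, 12.6 and 16.0 RPKM in wild-type libraries, with no overlap (-0.76 ± 0.13, adjusted p = 4.46e-06, limma), and its 7 transcripts all had differences below 0, from -0.76 to -0.10. In iBAT the transcripts of Srebf2 disagreed in sign in every comparison, so its calls there are not read as a direction, nor is its call with temperature in Ucp1-KO iWAT, where 5 of 7 were below 0. Within a tissue Insig2 was called once, in iBAT on high fat diet (0.32 higher in Ucp1-KO mice), and its difference was 0.02 after median-ratio scaling. Scap, the escort of SREBP2, stayed between 8.58 and 13.8 RPKM in all 96 libraries; it was lower in Ucp1-KO iWAT at 20 °C (-0.29, beside an all-gene median of -0.27) and at 30 °C (-0.18, beside -0.12), and rose by 0.19 ± 0.06 on high fat diet there. None of these 3 calls of Scap held after median-ratio scaling (0.06, -0.07 and 0.11).

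Soat1, which esterifies cholesterol for storage, gave the largest differences of the members in iBAT. Ucp1-KO iBAT at 30 °C held 2.86, 11.6 and 17.6 RPKM, against 0.594, 0.941 and 1.43 RPKM in wild-type libraries and 0.562, 0.951 and 1.65 RPKM in Ucp1-KO libraries at 20 °C. Neither range overlapped with that of Ucp1-KO iBAT at 30 °C; Soat1 fell by 2.30 ± 0.22 at 20 °C in Ucp1-KO mice (adjusted p = 1.97e-12, limma), and the temperature effect differed between genotypes by -1.84 ± 0.31 (adjusted p = 6.22e-06). On high fat diet it was 3.78, 6.90 and 11.3 RPKM in Ucp1-KO and 0.626, 1.10 and 2.00 RPKM in wild-type iBAT (1.83 ± 0.22, adjusted p = 1.88e-09). In wild-type iBAT the difference with temperature was -0.46 ± 0.22 and did not pass. The ranges were still apart there, 0.314 to 0.498 RPKM at 20 °C against 0.594 to 1.43 RPKM at 30 °C. All 7 transcripts had a difference below 0, at levels where this scale understates change. The SE of 0.22 pools the spread of all 6 groups of iBAT. In wild-type iBAT the SD of Soat1 was 0.058 RPKM at 20 °C and 0.317 RPKM at 30 °C. In Ucp1-KO iBAT at 30 °C it was 5.75 RPKM. The missed threshold therefore does not show that Soat1 was unchanged with temperature in wild-type iBAT.

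Macrophage markers moved with these values. Their sum over 12 genes was 342 to 2170 RPKM in Ucp1-KO iBAT at 30 °C, 131 to 233 RPKM in wild-type iBAT at 30 °C, 88.3 to 320 RPKM in Ucp1-KO iBAT at 20 °C and 58.1 to 77.8 RPKM in wild-type iBAT at 20 °C. In the comparison of genotypes at 30 °C 11 of 12 were higher and 1 lower, on high fat diet 11 and 1, and at 20 against 30 °C in Ucp1-KO iBAT 12 of 12 fell. Of all genes 54.2% and 52.8% were higher and 59.5% fell in these comparisons. None of the 12 markers was at 0 throughout a group. Cd68, a defining marker, ran in iBAT at 30 °C from 23.0 to 153 RPKM in libraries of Ucp1-KO mice and from 5.57 to 14.3 RPKM in those of wild-type mice. Their part in the values of Soat1 and of the efflux genes was not tested.

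**Figure D3:**
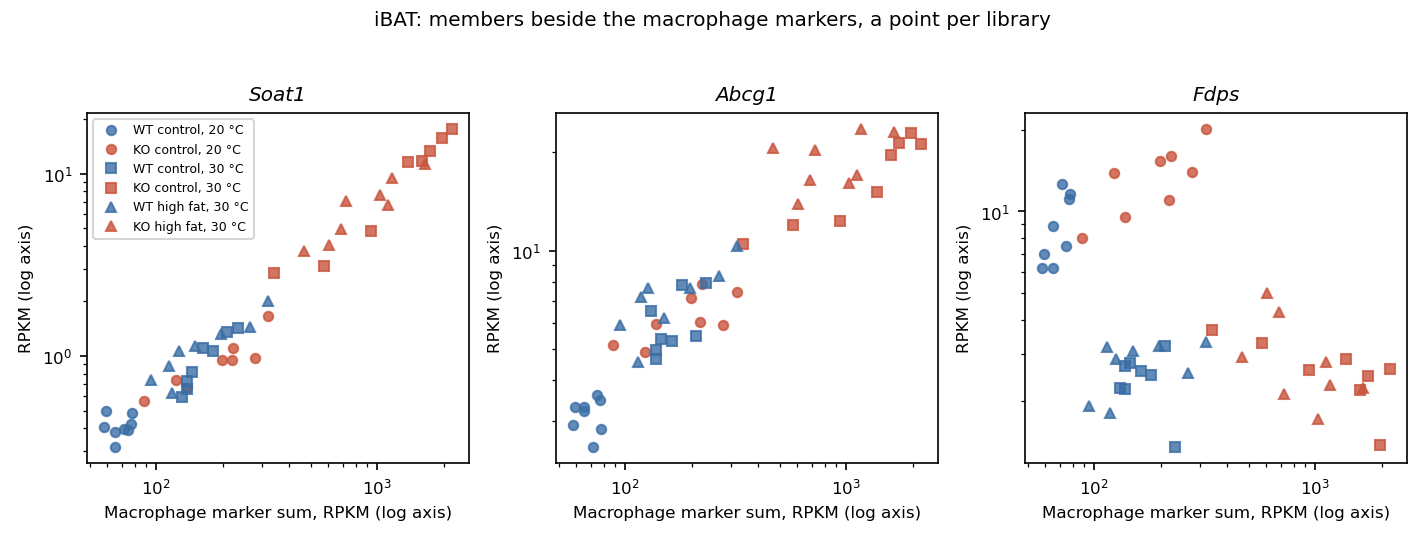
RPKM of Soat1, Abcg1 and Fdps in each of the 48 iBAT libraries against the summed RPKM of 12 macrophage markers, both on log axes (colours are genotypes, symbols conditions). Libraries with a higher marker sum had more Soat1 and Abcg1, and the Ucp1-KO libraries at 30 °C lie at 342 to 2170 RPKM of markers, while Fdps separates by temperature.

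Stard4, a carrier of sterols between membranes, was lower in Ucp1-KO than in wild-type iBAT at 20 °C, 1.03, 1.11 and 1.48 RPKM against 1.65, 2.45 and 2.77 RPKM (-0.61 ± 0.10, adjusted p = 3.72e-06, limma). It rose on high fat diet in wild-type iBAT from 1.30, 2.10 and 2.30 to 2.46, 3.33 and 4.41 RPKM, without overlap (0.59 ± 0.10, adjusted p = 1.51e-05, limma). These sizes depended on the transcript counted. The 12 transcripts of Stard4 ran from -0.61 to -0.19 for genotype at 20 °C and from 0.04 to 0.59 for diet in wild-type iBAT. In Ucp1-KO iBAT the rise on high fat diet was 0.30 ± 0.10 and did not pass when read from the RefSeq transcript (0.14). In iWAT the interaction of genotype and temperature was -0.52 ± 0.19 and did not pass.

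The 4 genes of uptake and efflux went the other way from the enzymes with temperature in Ucp1-KO iBAT, where all 4 fell at 20 °C, with a median of -1.02 against -0.34 for all genes. Abca1, which loads cholesterol onto apolipoprotein A-I, was 15.9, 23.3 and 27.5 RPKM at 20 °C and 38.3, 61.9 and 71.0 RPKM at 30 °C (-1.31 ± 0.16, adjusted p = 8.9e-10, limma). Abcg1, which exports sterol to larger lipoproteins, was 4.89, 6.00 and 7.91 RPKM against 10.5, 17.4 and 22.9 RPKM (-1.25 ± 0.14, adjusted p = 4.29e-11). Neither pair of ranges overlapped. Scarb1, the receptor for high density lipoprotein, fell by 0.80 and Mylip by 0.44. In wild-type iBAT only Abcg1 fell (-0.74 ± 0.14, adjusted p = 1.68e-05), from 4.67, 5.42 and 7.94 RPKM to 2.49, 3.27 and 3.62 RPKM, and Abca1 was at 0.19 ± 0.16. The interaction passed for all 4, led by Abca1 (-1.50 ± 0.23, adjusted p = 6.85e-07), where 52.4% of all genes passed. Of the 10 tested members that are not enzymes, 1 rose and 7 fell at 20 °C in Ucp1-KO iBAT, where 59.5% of all genes fell. After median-ratio scaling 3 rose and 5 fell, Mylip (-0.03) no longer among them, and the interaction passed for neither Mylip (-0.25) nor Abcg1 (-0.25).

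The comparison of genotypes at 30 °C uses the same Ucp1-KO libraries of iBAT, and 54.2% of all genes were higher in it. There all 4 genes were higher in Ucp1-KO mice, with a median of 0.79 against 0.27 for all genes: Abcg1 by 1.32 ± 0.14 (10.5, 17.4 and 22.9 against 4.67, 5.42 and 7.94 RPKM, adjusted p = 2.41e-11, limma), Scarb1 by 0.84 ± 0.13, Abca1 by 0.74 ± 0.16 and Mylip by 0.57 ± 0.14, the last not called after median-ratio scaling (0.24). On high fat diet Abcg1 (1.28 ± 0.14), Abca1 (1.15 ± 0.16) and Scarb1 (0.51, or 0.21 and not called after that scaling) were higher and Mylip was at 0.07. At 20 °C the transporters parted: Abcg1 was higher in Ucp1-KO iBAT, 4.89 to 7.91 against 2.49 to 3.62 RPKM (0.81 ± 0.14), and Abca1 lower, 15.9 to 27.5 against 30.3 to 44.8 RPKM (-0.76 ± 0.16, adjusted p = 0.000159). In that comparison 8 of the 12 macrophage markers were higher and 2 were lower, where 24.7% of all genes were higher and 13.1% lower. High fat diet lowered Abca1 in wild-type iBAT by 0.69 ± 0.16, to 15.2, 18.6 and 31.0 RPKM, while none of the 12 macrophage markers was called. In Ucp1-KO iBAT it lowered Scarb1 by 0.37 ± 0.13, and Abca1 was at -0.27 ± 0.16.

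In iWAT 3 of these genes (Abca1, Abcg1 and Mylip) fell at 20 °C in either genotype, while Scarb1 was at 0.04 and -0.01, against all-gene medians that were also below 0. Of all genes 12.35% fell in wild-type and 51.36% in Ucp1-KO iWAT. After median-ratio scaling Abcg1 alone of the 10 members that are not enzymes fell in either genotype (-0.61 in wild-type and -0.59 in Ucp1-KO mice). Abcg1 fell at 20 °C in wild-type mice from 20.9, 27.2 and 30.9 to 10.2, 15.1 and 23.2 RPKM (-0.71 ± 0.15, adjusted p = 0.000656, limma) and in Ucp1-KO mice from 10.6, 18.1 and 28.1 to 5.85, 9.44 and 14.1 RPKM (-0.92 ± 0.15). Abca1 fell by 0.49 ± 0.06 in Ucp1-KO iWAT, a call lost after median-ratio scaling (-0.14). At 20 °C all 4 were lower in Ucp1-KO iWAT, with a median of -0.43 against -0.27; Mylip was 22.8, 26.0 and 29.8 against 30.4, 37.7 and 41.2 RPKM (-0.49 ± 0.08, adjusted p = 1.63e-06), also not called after that scaling (-0.12), and 4 of 5 transcripts of Abca1 had a difference below 0. Of the 10 members that are not enzymes, 8 were lower and 1 higher there, where 55.0% of all genes were lower, and 2 lower and 1 higher after median-ratio scaling. At 30 °C Mylip was lower by 0.31 ± 0.08, and 4 of the 10 were lower, where 16.24% of all genes were lower. The count was 2 without the libraries that stood apart and 1 after median-ratio scaling (Mylip). Macrophage markers were lower in 9 of 12 at 20 °C (274 to 617 against 620 to 1269 RPKM in sum) and in 6 of 12 at 30 °C; their part was not tested. The interaction of genotype and temperature passed for Abca1 (-0.28 ± 0.09, adjusted p = 0.0371) and was -0.02 after median-ratio scaling. On high fat diet Abcg1 rose in Ucp1-KO iWAT from 10.6, 18.1 and 28.1 to 30.9, 34.4 and 43.6 RPKM, without overlap (0.88 ± 0.15, adjusted p = 1.68e-05, limma). Macrophage markers were higher there in 4 of 12, and 16.05% of all genes were higher. In wild-type iWAT no member outside the enzymes was called with diet (Abcg1 0.24 ± 0.15, Abca1 -0.11 ± 0.06), nor with genotype on high fat diet (Mylip -0.21 ± 0.08, Insig1 0.46 ± 0.19).

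Set side by side per library, the mean log2 level of the 17 enzymes less that of the 4 uptake and efflux genes ran in iBAT from -0.44 to 0.05 in wild-type and from -0.42 to -0.05 in Ucp1-KO mice at 20 °C. At 30 °C on control diet it ran from -1.57 to -1.03 in wild-type and from -2.22 to -1.45 in Ucp1-KO libraries. In iWAT it was -1.84 to -1.45 (wild-type) and -1.28 to -0.09 (Ucp1-KO) at 20 °C, and -2.66 to -2.38 and -2.27 to -1.69 at 30 °C on control diet. In each tissue and genotype the libraries at 20 °C lay wholly above those at 30 °C. The means under high fat feeding were -1.30 ± 0.18 and -1.75 ± 0.31 in iBAT, and -2.25 ± 0.23 and -2.25 ± 0.34 in iWAT (SD, n = 8, wild-type and Ucp1-KO).

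**Figure D4:**
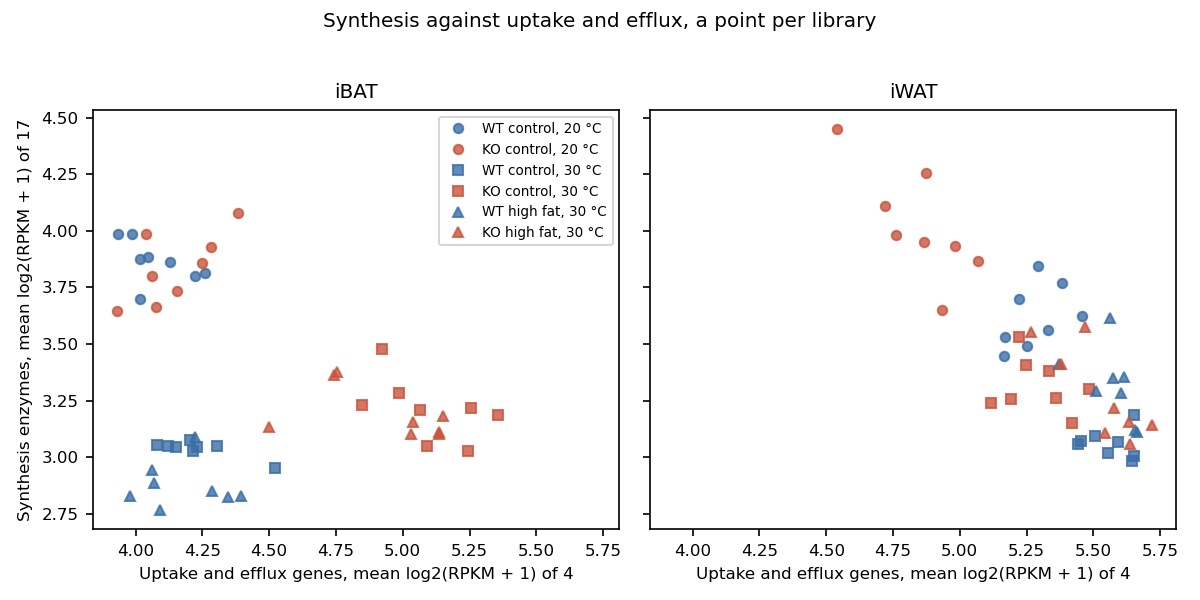
Mean log2(RPKM + 1) of the 17 tested synthesis enzymes against that of the 4 uptake and efflux genes, a point per library, iBAT left and iWAT right (colours are genotypes, symbols conditions). In iBAT, libraries at 20 °C lie highest on the enzyme axis (3.65 to 4.08), and Ucp1-KO iBAT at 30 °C lies to the right (4.85 to 5.36 on the efflux axis) of wild-type iBAT (4.08 to 4.52).

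Within groups, members varied together more in iWAT than in iBAT. Over the deviations of 48 libraries from their group means, the median correlation among the 136 pairs of enzymes was 0.35 in iWAT, with 126 pairs above 0, and 0.18 in iBAT, with 94 above 0. Between enzymes and uptake or efflux genes (68 pairs) the medians were -0.20 in iWAT and -0.04 in iBAT. These describe pairs that share libraries, depth and cell makeup. Hmgcs1 had a median of -0.05 with the other enzymes in iBAT and 0.30 in iWAT, while Insig1 had 0.22 and 0.23. Srebf2 had -0.16 with the enzymes and 0.37 with the efflux genes in iWAT.

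In wild-type mice the 4 uptake and efflux genes were higher in iWAT than in iBAT in each condition, the calls of Scarb1 at 30 °C on either diet being lost after median-ratio scaling. In Ucp1-KO mice Scarb1 was higher in iBAT at 30 °C on control diet (0.35). Soat1 in wild-type mice at 20 °C was 0.314 to 0.498 RPKM in iBAT and 3.46 to 7.60 RPKM in iWAT (iBAT less iWAT -2.10 ± 0.22), and Abcg1 was 2.49 to 3.62 against 10.2 to 23.2 RPKM (-2.01 ± 0.14, adjusted p = 7.5e-23, limma). Of the 10 members that are not enzymes, 9, 10 and 8 were lower in wild-type iBAT at 20 °C, at 30 °C and under high fat feeding, and none was higher, where 80.2%, 81.3% and 78.6% of all genes passed. After median-ratio scaling 7, 6 and 5 were lower and 2 in each condition higher. In Ucp1-KO mice 8, 6 and 5 were lower and 1, 3 and 0 higher, where 62.9%, 62.2% and 69.5% passed; Soat1 was higher in iBAT at 30 °C (0.71 ± 0.22). Among the enzymes the order depended on the condition: 9 were higher in iBAT and 2 lower in wild-type mice at 20 °C, and 3 higher and 11 lower on high fat diet. Hmgcs1 was higher in wild-type iBAT in each condition (0.85 ± 0.13, 1.38 ± 0.13 and 1.07 ± 0.13), and Hsd17b7 in both genotypes and each condition, by 0.43 to 1.10. All-gene medians lay from -0.43 to -0.07 here, and median-ratio scaling shifted the counts. With it, and with Idi1 also past the filter, 16, 9 and 4 enzymes were higher and 1, 1 and 8 lower in wild-type iBAT in the same order of conditions, and the share of all calls that were higher went from 19.8 to 46.4%, from 24.0 to 45.1% and from 21.2 to 45.7%. In Ucp1-KO mice that share went from 32.1 to 48.7% at 20 °C and from 35.3 to 46.1% on high fat diet. The effect of temperature differed between tissues for 5 members in wild-type mice, all enzymes, against 16.8% of all genes: the rise at 20 °C was larger in iBAT for Fdft1 (1.09), Msmo1 (0.62) and Dhcr7 (0.51), and Mvd, which rose in iBAT only, was at 0.52. Hmgcs1 was at -0.53, with -0.81 in iBAT and -0.28 in iWAT, a call lost after median-ratio scaling (-0.48). After median-ratio scaling 9 enzymes and 1 other member passed, with 41.2% instead of 30.2% of all calls higher. In Ucp1-KO mice 9 members passed against 25.5% of all genes, led by Soat1 (-1.78), Insig1 (0.91), Abca1 (-0.82) and Scarb1 (-0.79), and the share of calls that were higher went from 26.3 to 52.4%. Macrophage markers summed to 58.1 to 321 RPKM in wild-type iBAT and 620 to 1819 RPKM in wild-type iWAT.

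Other sterol genes were taken from lists chosen by function. Among all genes, 11.6% rose and 33% fell at 20 °C in wild-type iBAT, 13.9% rose and 59.5% fell in Ucp1-KO iBAT, and 54.2% were higher and 10.5% lower in Ucp1-KO iBAT at 30 °C. Of 6 tested paralogs of the enzymes, mitochondrial ones included, 3 rose and none fell at 20 °C in wild-type iBAT, with a median of 0.30, and 3 rose and 2 fell in Ucp1-KO iBAT. Of 9 tested LXR receptors and LXR-linked genes 3 rose and 1 fell at 20 °C in wild-type iBAT, 7 fell and none rose in Ucp1-KO iBAT, and 8 were higher in Ucp1-KO iBAT at 30 °C. Apoe, the apolipoprotein that takes up exported sterol, was 130 to 302 RPKM in Ucp1-KO iBAT at 20 °C and 1153 to 2398 RPKM at 30 °C (-3.35), and it is also made by macrophages. Srebf1, which encodes the SREBP of fatty acid synthesis, rose by 0.72 at 20 °C in wild-type and fell by 0.84 in Ucp1-KO iBAT. Of 11 genes of lysosomal and intracellular sterol traffic, 9 were higher and 1 lower in Ucp1-KO iBAT at 30 °C. Of 7 genes of SREBP processing none rose and 4 fell at 20 °C in wild-type iBAT, and 1 rose and 5 fell in Ucp1-KO iBAT. Of 12 genes of fatty acid synthesis 10 rose in wild-type and 12 in Ucp1-KO iBAT at 20 °C, and Fasn, which makes palmitate, rose in iBAT by 3.00 and 1.85. In iWAT 11 and 12 rose, where 7.2% and 9.0% of all genes rose. On high fat diet 8 of these 12 fell in iBAT of either genotype, beside 7 and 3 of 17 cholesterol enzymes. Of all genes 14.5% fell with diet in wild-type and 8.0% in Ucp1-KO iBAT. These counts are without median-ratio scaling.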

How the data were processed

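Transcript abundance was measured by RNA-seq in 96 libraries, 8 in each of 12 groups. Per the labels' protocols, RNA was extracted with TRIsure and libraries were made with a TruSeq stranded mRNA kit. The authors deposited RPKM values for 168326 transcripts; CASAVA and bcl2fastq are named per the submitters' processing notes, and which aligner, counter and build were used is not given in the sources used here. Reads per library, recovered from the spacing of low RPKM values (95.0 to 95.7% whole within 0.05 of a read), were 8.91 to 19.2 M, and 1 read on a transcript of 1 kb was worth 0.052 to 0.112 RPKM.

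Each symbol was taken from its transcript with the highest mean, giving 29072 symbols. In 17.0% of symbols with several transcripts, transcripts held identical values, and 13.8% of transcripts, with 9.85% of all RPKM, had no Entrez identifier. Genes with at least 0.5 RPKM in 8 libraries were kept, 14807 in iBAT, 15897 in iWAT and 16310 for comparisons between tissues. Values were tested as log2(RPKM + 1) with limma-trend (limma 3.58.1, R 4.3.3) on all groups of a tissue, or of both tissues taken as independent libraries, with Benjamini-Hochberg adjustment over all genes and a threshold of 0.05. Nothing says whether libraries of a group came from separate litters or cages, so the p-values measure the spread between these libraries. The procedure was tested on simulated data.

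The members and all other lists were chosen with earlier results of these data known. By the rule for named genes, values in full went in each comparison within a tissue to the 4 enzymes and the 2 other members with the smallest p; further members were named where a count of 5 or fewer or a condition called for them, after their values were seen. A total of 8 alternatives were planned, and 2 were chosen after seeing the data.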

Additional observations from a re-analysis of the deposited data

Results flagged for a closer look

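In 30 of 324 sets of 8 libraries (9.26%), the highest or lowest library of a member lay far from the other 7. The limit used is passed by about 1 in 20 sets of normally distributed values. RPKM need not be so distributed and the sets share libraries, so the share is not read as an excess over chance. Several of the flagged values came from the same library. In wild-type iWAT at 30 °C, library 8 held the highest Hmgcs1 (61.1 RPKM), Insig1 (63.9 RPKM) and Soat1 (9.99 RPKM). On high fat diet, library 7 of wild-type iWAT held the highest Acat2 (29.6 RPKM), Tm7sf2 (4.42 RPKM) and Insig1 (87.4 RPKM), and library 8 of Ucp1-KO iWAT at 20 °C the highest Acat2 (68.3 RPKM) and Msmo1 (13.6 RPKM). Library 6 of wild-type iWAT at 20 °C, which also stood apart over all genes, held the highest Hsd17b7 (3.95 RPKM) and Ebp (34.1 RPKM).

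In iBAT on high fat diet, library 5 of the wild-type group held the highest Mvk (3.50 RPKM) and Pmvk (24.2 RPKM), and library 6 the lowest Sqle (1.04 RPKM) and Srebf2 (5.46 RPKM). In wild-type iBAT at 30 °C, library 8 held the highest Mvd (2.04 RPKM) and the lowest Dhcr7 (2.18 RPKM). Ucp1-KO iBAT had a low Hmgcs1 (60.8 RPKM) and a high Sc5d (20.8 RPKM, library 7) at 30 °C and a high Msmo1 (10.8 RPKM) on high fat diet.

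The other sets were in iWAT. They were the highest Fdft1 in wild-type mice at 20 °C (25.1 RPKM), Hsd17b7 in wild-type mice at 30 °C (2.00 RPKM), and Hmgcs1 in wild-type mice on high fat diet (82.2 RPKM), where Insig2 had a low library (18.4 RPKM). In Ucp1-KO mice at 30 °C they were the highest Pmvk (54.0 RPKM), Fdft1 (13.0 RPKM) and Sqle (3.94 RPKM) and the lowest Tm7sf2 (2.07 RPKM) and Ebp (19.1 RPKM), and on high fat diet the highest Mvd (4.64 RPKM) and Hsd17b7 (2.48 RPKM).

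The effect of temperature differed between genotypes, by limma's interaction on the log2 scale, for the following named genes in iBAT: Fdft1 (-1.70), Hmgcs1 (0.95), Tm7sf2 (-0.77), Msmo1 (-0.58), Abca1 (-1.50) and Soat1 (-1.84). In iWAT it differed for Ebp (-0.49) and Abca1 (-0.28), the latter lost under 5 alternatives. The effect of diet differed between genotypes in iBAT for Hmgcs1 (0.71).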

How the results depend on the processing

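The number of members called stayed within 1.5 times in 241 of 260 alternatives over 26 comparisons. The exceptions in iBAT were genotype at 30 °C (10 members) with 17 under quantile normalization; genotype on high fat diet (16) with 9 under median-ratio scaling and 9 under quantile normalization; diet in Ucp1-KO mice (7) with 4 when only the compared groups were fitted; and the interaction of diet and genotype (1) with 3 for summed transcripts, 6 with array weights, 2 without the 4 libraries that stood apart and 2 for RefSeq transcripts. In iWAT, array weights gave 8 for genotype on high fat diet (1), 10 for diet in wild-type mice (5), 10 for diet in Ucp1-KO mice (6), 5 for the interaction of temperature and genotype (2) and 14 for that of diet and genotype (0). Median-ratio scaling gave 2 for diet in wild-type mice and 4 for the interaction of temperature, which was also 4 when only the compared groups were fitted. For the tissue difference in the temperature effect of wild-type mice (5), median-ratio scaling gave 10, array weights 10 and the compared groups alone 12. The causes were not tested.

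Of the named genes' differences, 1022 kept their side of the threshold, 27 came to pass it, 29 no longer passed it and 2 changed sign: Fdft1 for genotype in iBAT at 30 °C for summed transcripts (-0.12, adjusted p = 0.482, limma) and Stard4 for the interaction of temperature in iWAT for its RefSeq transcript (0.038, adjusted p = 0.905). Genes near 1 RPKM rest on few reads, which limits Idi1, Mvd and Soat1 in wild-type iBAT. No paired analysis was possible because the labels number the libraries from 1 to 96 with no number shared between groups.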
